A study of Mus musculus with 6 samples.

Results

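The 10 genes described here encode the proteins that carry a signal from the cytoplasmic tail of the lymphotoxin-β receptor (LTβR) to NF-κB: the adaptors Traf2, Traf3 and Traf6, the ubiquitin ligases Birc2 (cIAP1) and Birc3 (cIAP2), the kinases Map3k14 (NIK) and Map3k7 (TAK1), and the IκB kinase subunits Chuk (IKKα), Ikbkb (IKKβ) and Ikbkg (NEMO). They were chosen by symbol for their place in the pathway and not for their values, though earlier results of these data were known. All 10 were found among 26216 gene names. RNA was sequenced from LT/ST-HSCs, the long-term and short-term repopulating hematopoietic stem cells of the bone marrow (BM), sorted as Lin- Annexin-V- Sca1+ Kit+ CD150+ CD48-. The donor cells were Ltbr-/- (CD45.2), which are homozygous for a deletion within Ltbr in every cell of the donor mouse, or congenic Ly5.1 (CD45.1) with an intact receptor. Lethally irradiated Ly5.1/Ly5.2 mice had received LSKs of both kinds together, so that both groups spent 6 weeks in the same hosts, and 6 such chimeras were combined into 3 replicates per genotype. Donors were 13 weeks old for Ltbr-/- replicate 1, 10 for replicate 2 and 10 to 13 for replicate 3, and 7 to 13 weeks old for all Ly5.1 replicates. Genotype therefore cannot be told apart from the CD45 allele, and not fully from donor age.

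LTβR is a receptor of the TNF receptor family without enzymatic activity, and its tail recruits TRAF proteins. In the resting cell, TRAF3 brings NIK to a complex of TRAF2 with the cIAPs, which mark NIK for degradation; an engaged receptor takes up this complex, NIK accumulates and activates IKKα, which starts the non-canonical arm by processing of p100. In the canonical arm, TAK1 activates a complex of IKKα, IKKβ and NEMO, which phosphorylates the IκB inhibitors. Most of this regulation acts on proteins and their modification, whereas the data here are mRNA levels.

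Values are the deposited linear signals, on which 1 unit of log2 is a doubling; they are regularized values, in which the differences of weakly expressed genes are drawn towards 0. The targeted gene itself separated the groups. The signal of Ltbr was 24.2, 26.4 and 23.1 in Ltbr-/-, against 564, 549 and 522 in Ly5.1 (log2 fold change -4.47, SE 0.08, limma adjusted p = 2.15e-32). The stem cell markers of the gate were present, with signals of 5180 to 6100 for Kit, 541 to 767 for Ly6a (Sca1) and 260 to 329 for Slamf1 (CD150). The signal of Cd48, which the gate excludes, was 20.1 to 28.9. Summed over 9 HSC markers, the signal was 17208 to 17803 in Ltbr-/- and 18291 to 18931 in Ly5.1. In limma, Ly6a (log2 fold change -0.39, adjusted p = 0.0016) and Meis1 (-0.23, adjusted p = 0.038) fell and Gata2 rose (0.22, adjusted p = 0.0402). The other HSC markers did not pass the adjusted p. Markers of other cell types also moved with genotype, though not all members of a list in the same direction. The summed signal of 4 mast cell and basophil markers was 7025 to 7416 in Ltbr-/- against 3350 to 3961 in Ly5.1, that of 5 granulocyte markers 27938 to 28716 against 36597 to 39834, that of 4 erythroid markers 2654 to 2934 against 1591 to 1957 and that of 4 megakaryocyte markers 11905 to 12633 against 9477 to 10709. Sums were 609 to 640 against 446 to 505 for 4 B cell markers, and 2269 to 2623 against 2027 to 2204 for the 3 of 4 macrophage markers in the files; 4 T cell markers summed to 29 to 31 in both groups, with Cd3e and Cd8a at or below 1 in every sample. By single genes in limma, all 5 granulocyte markers fell, whereas the higher sums rested on Cma1 (log2 fold change 1.32) and Cpa3 (0.56) of the mast cell and basophil markers (Mcpt8 -0.22 and Ms4a2 -0.04, not past the test), on Hba-a1 (0.99) of the erythroid, Itga2b (0.31) of the megakaryocyte, Cd79a (0.62) of the B cell and Emr1 (0.83) of the macrophage markers. Pf4 of the megakaryocyte (-0.33) and Itgam of the macrophage markers (-0.30) fell, and Csf1r, at -0.27, did not pass. In bulk RNA, fewer cells of a type and less RNA per cell cannot be told apart, and the part of these markers in the results below was not tested.

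No difference between Ltbr-/- and Ly5.1 LT/ST-HSCs passed the test in any of the 10 genes. In the limma fit, 0 of 10 reached an adjusted p of 0.05, alone or together with a fold of 1.5, against 14.8% and 2.78% of the 13108 genes tested. At an unadjusted p under 0.05, 1 of 10 passed, Ikbkb, against 27.1% of all genes. A linear model without moderated variances called 0 of 10 at an adjusted p under 0.05, but only 4.37% of all genes. For each of the 10 genes the ranges of the 3 Ltbr-/- and the 3 Ly5.1 signals overlapped, whereas 30.4% of all genes tested had groups that did not. The log2 fold changes ran from -0.18 (Ikbkb) to 0.04 (Birc3). Their 95% intervals together spanned -0.36 to 0.25, a fold of 0.78 to 1.19, so that no interval reached a change of 1.5-fold in either direction. These intervals rest on variances that limma moderates across genes. For most of the 10 genes the interval is narrower than the gene's own spread alone would give. Examples are Map3k7, with a within-group SD of 0.211, and Ikbkb, with 0.107. That the interval of Ikbkb leaves out 0 depends on this moderation. For 9 of 10 genes the interval held 0, and for 9 of 10 the difference of the means was smaller than the larger SD of the groups. The estimates of 8 of 10 genes lay below 0, as did those of 53.6% of all genes, but 9 did after quantile normalization and 10 after scaling to equal total signal. Under the latter, the median of all genes was -0.164 and 51% of them passed the adjusted p. There, 4 of 10 (Ikbkb, Traf3, Birc2 and Traf2) were called lower, against 44.9% of all genes. Scaling to equal total signal shifts all genes of a sample alike. The median of the 10 relative to that of all genes, -0.067, is therefore the same with and without it by construction.

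**Figure D1:**
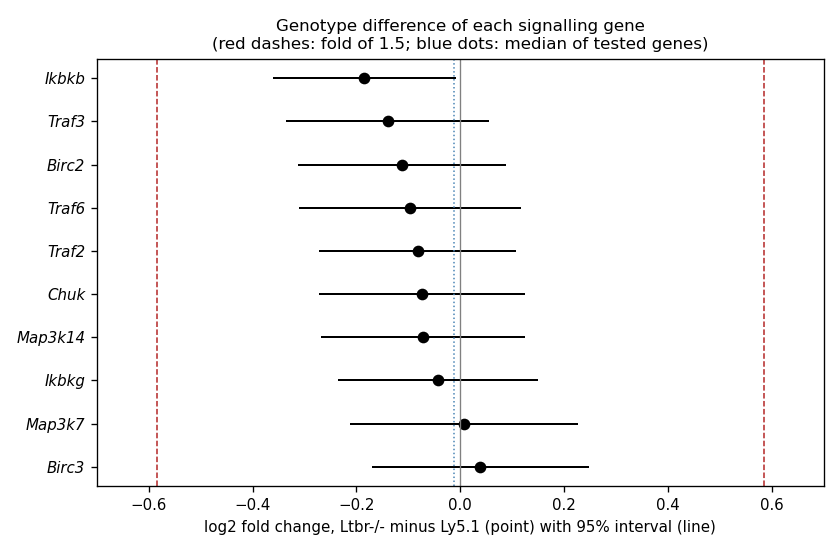
Log2 fold change of each gene in Ltbr-/- minus Ly5.1 LT/ST-HSCs (x axis; n = 3 per group), with points for the limma estimates, lines for their 95% intervals, red dashes for a fold of 1.5 and a blue dotted line for the median of the 13108 genes tested. All 10 intervals end inside the dashes, and only that of Ikbkb, from -0.36 to -0.01, leaves out 0.

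Among the adaptors, Traf2 is the RING-type TRAF that recruits the cIAPs. It lies on chromosome 2 (GRCm38.p6, 25517982 to 25546940), and its signals were 646, 643 and 722 in Ltbr-/- and 773, 660 and 697 in Ly5.1. Ly5.1 replicate 1 was the highest of the 6 and the other samples interleaved, for a log2 fold change of -0.08 (SE 0.09, adjusted p = 0.623). Traf3 (chromosome 12, 111166321 to 111267155) is the adaptor that docks NIK. Its signals were 238, 259 and 239 in Ltbr-/- against 245, 296 and 273 in Ly5.1. The highest Ltbr-/- value lay between the lowest and the middle Ly5.1 value, and the means of 246 ± 11.9 and 271 ± 25.8 (SD, n = 3) gave the second largest difference of the 10 genes, -0.14 (SE 0.10, adjusted p = 0.359). Traf6 (chromosome 2, 101678420 to 101701668) serves mainly Toll-like and interleukin-1 receptors and activates TAK1. Signals of 296, 330 and 259 in Ltbr-/- lay among those of 361, 315 and 271 in Ly5.1, with a log2 fold change of -0.10 (SE 0.10, adjusted p = 0.605). The log2 difference between Traf3 and Traf2 within a sample, which does not depend on the scaling between samples, was -1.45 ± 0.14 in Ltbr-/- and -1.39 ± 0.25 in Ly5.1 (SD, n = 3; exact two-sided permutation test, p = 0.8, adjusted over 4 such comparisons 0.8).

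Birc2 and Birc3 are paralogous ubiquitin ligases that lie side by side on chromosome 9 (7818226 to 7837131 and 7847468 to 7873205), 10.3 kb apart with no annotated gene between them. RefSeq lists each symbol as a synonym of the other, so that the assignment of cIAP1 and cIAP2 rests on the symbols in the files. Birc2 had signals of 809, 641 and 780 in Ltbr-/- and 798, 885 and 725 in Ly5.1. Ltbr-/- replicate 2 was the lowest and Ly5.1 replicate 2 the highest of the 6, and the other 4 samples interleaved (log2 fold change -0.11, SE 0.10, adjusted p = 0.498). Birc3, itself a known NF-κB target gene, had signals of 381, 350 and 405 in Ltbr-/- against 313, 422 and 378 in Ly5.1. All 3 Ltbr-/- values lay inside the Ly5.1 range, and the log2 fold change was 0.04 (SE 0.10, 95% interval -0.17 to 0.25, adjusted p = 0.855). The log2 difference between Birc3 and Birc2 was -0.97 ± 0.11 in Ltbr-/- and -1.12 ± 0.21 in Ly5.1 (SD, n = 3), with p = 0.5 in the exact permutation test (adjusted 0.8). Of the windows of read length (76 bases) in the longest coding transcript, 1.2% of Birc2 and 3.6% of Birc3 also occurred in another gene, the latter being the highest share of the 10 genes, so that few reads could have been split between the paralogs.

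The kinases directly above the IKK complex were likewise spread within each group. Map3k14 (chromosome 11, 103219764 to 103267401) encodes NIK, the kinase of the non-canonical arm, whose abundance is set largely by degradation of the protein. Its signals were 380, 315 and 331 in Ltbr-/- and 344, 381 and 352 in Ly5.1. Ltbr-/- replicate 1 lay at the top of the Ly5.1 values and the other Ltbr-/- replicates below them, for a log2 fold change of -0.07 (SE 0.10, 95% interval -0.27 to 0.12, adjusted p = 0.686). Between NIK and its adaptor, the log2 difference of Map3k14 and Traf3 was 0.47 ± 0.20 in Ltbr-/- and 0.41 ± 0.07 in Ly5.1 (SD, n = 3; exact permutation test, p = 0.7, adjusted 0.8). Map3k7 (chromosome 4, 31963492 to 32023470) encodes TAK1, the kinase of the canonical arm. With signals of 432, 333 and 411 in Ltbr-/- and 415, 431 and 325 in Ly5.1, each group held 2 high samples and 1 low one. The means of 392 ± 52.4 and 391 ± 57.3 (SD, n = 3) were the closest of the 10 genes, and the within-group SD of 0.211 on the log2 scale was the largest (log2 fold change 0.0067, SE 0.11, adjusted p = 0.98).

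Of the IKK subunits, Chuk (chromosome 19, 44073334 to 44107505) encodes IKKα, the substrate of NIK. Its signals were 524, 584 and 509 in Ltbr-/- and 512, 638 and 558 in Ly5.1. The lowest value of each group was nearly equal and Ly5.1 replicate 2 was the highest (log2 fold change -0.07, SE 0.10, adjusted p = 0.675). Ikbkb (chromosome 8, 22659205 to 22706589) encodes IKKβ, the main IκB kinase of the canonical arm, and was the gene with the largest difference and the highest signal of the 10. Its signals were 1522, 1818 and 1533 in Ltbr-/-, against 1809, 1904 and 1807 in Ly5.1. Ltbr-/- replicates 1 and 3 lay below every Ly5.1 sample, but replicate 2 lay above 2 of them. The log2 fold change was -0.18 (SE 0.09, 95% interval -0.36 to -0.01), with an unadjusted p of 0.038 in limma and an adjusted p of 0.155, and the exact two-sided permutation test gave p = 0.3, where 0.1 is the smallest value that 3 against 3 samples allow. Without Ltbr-/- replicate 2 the log2 fold change was -0.268 with an adjusted p of 0.0651, and without Ltbr-/- replicate 1 or 3 it was -0.14 or -0.146 (adjusted p = 0.397 and 0.413). Ikbkg (chromosome X, 74393233 to 74456792) encodes NEMO, the regulatory subunit that binds ubiquitin chains. Its signals of 310, 353 and 348 in Ltbr-/- and 339, 362 and 340 in Ly5.1 had the smallest spread of the 10 genes, a within-group SD of 0.0823, and a log2 fold change of -0.04 (SE 0.09, adjusted p = 0.816). The log2 difference between the catalytic subunits Ikbkb and Chuk was 1.59 ± 0.05 in Ltbr-/- and 1.70 ± 0.12 in Ly5.1 (SD, n = 3; exact permutation test, p = 0.3, adjusted 0.8).

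**Figure D2:**
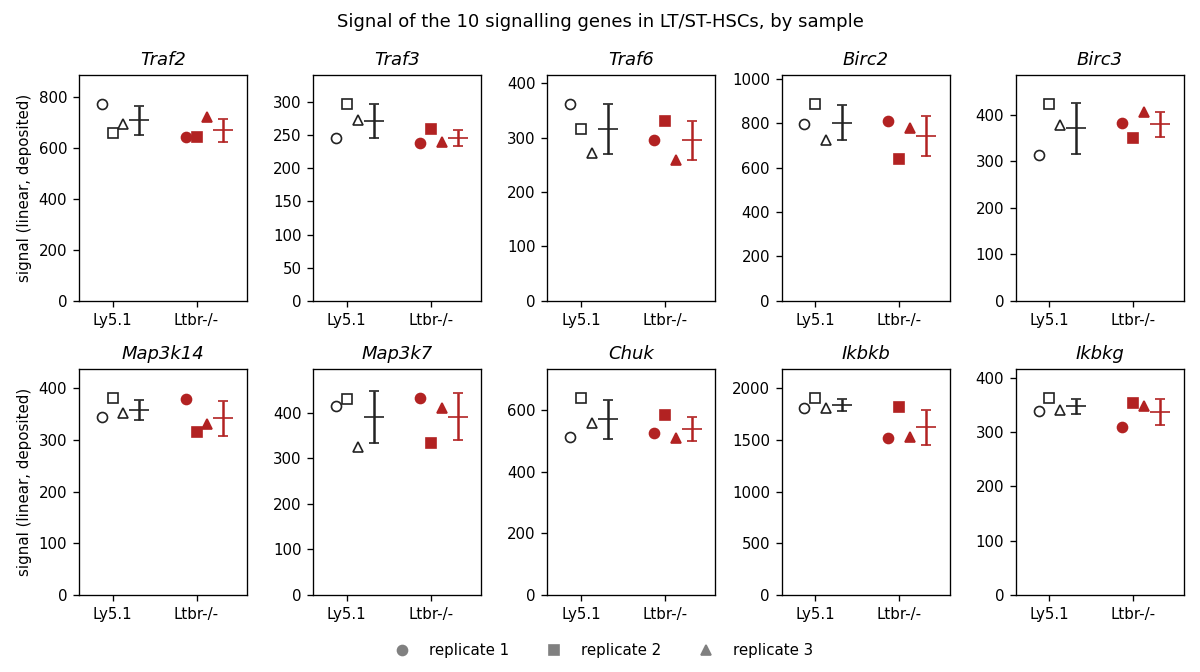
Deposited linear signal of each gene (y axes, from 0) in 3 Ly5.1 (open black) and 3 Ltbr-/- (filled red) LT/ST-HSC samples, with symbols for the replicate number and bars for mean ± SD. In each of the 10 panels the symbols of the groups overlap in height, and for Ikbkb only Ltbr-/- replicate 2, at 1818, reaches the Ly5.1 samples.

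All 10 mRNAs were present at intermediate to high levels in LT/ST-HSCs, with means at the 42.0 to 88.3 percentile of the genes tested. Divided by the length of the longest protein-coding transcript, the order of the levels was the following, in signal per kb averaged over all 6 samples. Ikbkb stood at 436 (383 to 479 over the samples), above every sample of every other member. Birc2 followed at 232 (192 to 266) and Traf2 at 227 (211 to 254), whose sample ranges overlapped. Chuk, at 158 (145 to 182), did not overlap with Traf2 and met Birc3, at 129 (107 to 145), only at the edge. Map3k14 at 82.6 (74.3 to 89.7) was below Birc3 in every sample, and overlapped with Map3k7 at 67.8 (56.3 to 74.9), which overlapped with Traf6 at 49.5 (41.9 to 58.5), and Traf6 with Ikbkg at 48.9 (44.3 to 51.7). Traf3 was the lowest, at 36.6 (33.7 to 41.9), with no overlap with Ikbkg. Among the 3 IKK subunits the signal per kb thus fell from Ikbkb through Chuk to Ikbkg without overlap, and among the 3 TRAFs from Traf2 through Traf6 to Traf3, where the ranges of the last pair touched. The order assumes that the longest transcript is the one expressed in these cells, which the files do not show.

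Samples of 1 group differed more in most of these genes than in the median gene tested. The median within-group SD was 0.124 on the log2 scale for the 10 genes and 0.0929 for all genes tested. Single genes ran from 0.0823 for Ikbkg, below the latter, to 0.211 for Map3k7. Ltbr-/- replicate 2, from donors of 10 weeks, was the highest Ltbr-/- sample for 5 genes (Traf3, Traf6, Chuk, Ikbkb and Ikbkg) and the lowest for the other 5, whereas it was at either end for 67.4% of all genes. Ly5.1 replicate 2 was the highest Ly5.1 sample for 8 of 10 genes, all but Traf2 and Traf6, against 31.7% of all genes. Deviations from the group mean went together for Traf3 and Chuk (Pearson r = 0.97 over the 6 samples) and for Birc2 and Map3k7 (r = 0.95) and were opposed for Traf2 and Chuk (r = -0.86), while the median r over the 45 pairs of genes was 0.02. With 6 samples and 45 pairs, these values are descriptions of these libraries. The 3 genes with profiles most like that of Ikbkb, of 13107 compared over the 6 samples, were Fnbp4 (r = 0.994; log2 fold change -0.28, limma adjusted p = 0.0249), Cdadc1 (r = 0.991; -0.17, adjusted p = 0.23) and 4931402G19Rik (r = 0.983; -0.10, adjusted p = 0.335). The best of so many correlations over 6 samples are high by selection, so these values too are only descriptions.

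**Figure D3:**
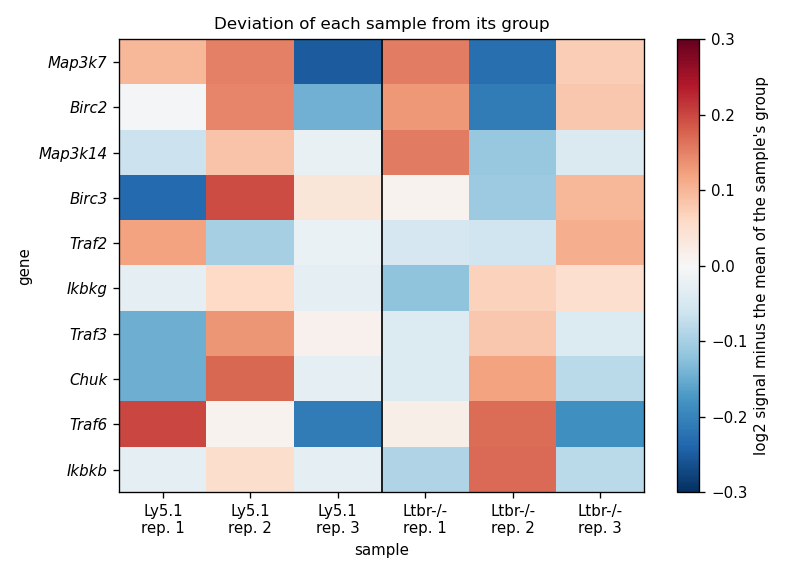
Log2 signal of each sample minus the mean of its own group (color scale from -0.3 to 0.3), for the 10 genes (rows, ordered by Ltbr-/- replicate 2) and the 6 samples (columns, Ly5.1 left and Ltbr-/- right of the line). Ltbr-/- replicate 2 holds the extreme colors of its group in all 10 rows, and Ly5.1 replicate 2 is the highest of its group in 8.

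RefSeq promoters (250 bases before to 50 after a transcription start, GRCm38.p6) were at hand for 9 of the 10 genes, all but Ikbkb, in 13 entries with a median GC content of 60.0%, against 52.7% for all 32851 promoters. Because the pathway ends in NF-κB, the entries were searched on both strands for the NF-κB consensus, which occurred in 5.8% of all promoters and in 2 of the 13 entries, those of Map3k7 and Traf3. Both are printed here, 5′ to 3′ on the plus strand, with the matched bases in capitals. The match of Map3k7 (chr4:31964004-31964033) ran from base -92 to -83, counted from the start, on the minus strand, and that of Traf3 (chr12:111166349-111166378) from base -10 to -1 on the plus strand.
Map3k7: tccccgggtcaGGAAATTCCCcgctcgggt
Traf3: aggcggcccgcGGGGATTTCCagcgcgcga
These genes had log2 fold changes of 0.0067 and -0.14, neither past the test, and a match of letters does not show binding. Of the other motifs searched on both strands, GGGCGG occurred in 8 of the 13 entries (35.7% of all promoters), CCAAT in 4 (37.4%), CCGGAAG in 2 (8.86%) and TATAAA in 0 (13.6%).

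Beyond the 10 genes, 53 other genes of the pathway were examined in 8 lists. Of these, 9 changed at an adjusted p under 0.05, 3 higher and 6 lower in Ltbr-/- (17.0% together, against 14.8% of all genes, of which 10.6% were higher and 4.18% lower), and none reached a fold of 1.5. The median log2 fold change of the 53 was 0.00, against -0.01 for all genes and -0.08 for the 10 signalling genes. Of the 53, 19 had groups that did not overlap (35.8%, against 30.4% of all genes). The count of 9 fell to 2 in a linear model without moderated variances (3.77%, against 4.37% of all genes), to 3 without Ltbr-/- replicate 2 (5.66% against 10.9%) and to 4 without Ltbr-/- replicate 3 (7.55% against 9.56%), and rose to 21 under equal total signal (39.6% against 51%).

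The other TRAFs and adaptors, 9 genes, held 2 that rose and 1 that fell. Traf4, a TRAF family member, had signals of 413, 390 and 458 in Ltbr-/- and 329, 357 and 344 in Ly5.1, without overlap (log2 fold change 0.29, SE 0.09, adjusted p = 0.0334). Traf3ip2, which encodes Act1, the adaptor of the interleukin-17 receptor, stood at 126, 146 and 143 against 110, 110 and 115 (log2 fold change 0.31, SE 0.08, adjusted p = 0.00869). Both lost their call under equal total signal and in the linear model without moderated variances, Traf4 also without Ltbr-/- replicate 1 or 3 or Ly5.1 replicate 1 or 3 and Traf3ip2 without Ltbr-/- replicate 2 or 3. Tank, a TRAF-binding regulator also known as I-TRAF, was lower in every Ltbr-/- sample, with 531, 393 and 436 against 553, 633 and 537 (log2 fold change -0.35, SE 0.10, adjusted p = 0.0166), a call lost without Ltbr-/- replicate 2 or 3 or Ly5.1 replicate 2, without a trend in the variances and without moderated variances. The highest adjusted p over the alternatives was 0.217 for Traf4, 0.113 for Traf3ip2 and 0.282 for Tank.

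Of the 7 deubiquitinases, 2 fell and none rose. Tnfaip3 encodes A20, an NF-κB target gene and a feedback inhibitor that edits ubiquitin chains. Its signals were 285, 276 and 273 in Ltbr-/- and 379, 340 and 372 in Ly5.1. The groups were well apart, with a log2 fold change of -0.39 (SE 0.09, 95% interval -0.57 to -0.20, adjusted p = 0.00279), and the call was kept in all 16 alternatives that gave a value, with adjusted p from 5.31e-05 to 0.0456. Cyld, which removes linear and lysine-63-linked chains from TRAFs and NEMO, stood at 829, 776 and 856 against 980, 1073 and 929 (log2 fold change -0.28, SE 0.09, adjusted p = 0.0329). Its call was lost without a filter on the mean, in the linear model without moderated variances, and without any 1 of Ltbr-/- replicates 1, 2 and 3 or of Ly5.1 replicates 1 and 2 (highest adjusted p = 0.153).

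Among the 5 inhibitor of apoptosis (IAP) genes other than the cIAPs, 2 fell. Xiap, a direct caspase inhibitor, had signals of 320, 272 and 287 in Ltbr-/- and 357, 417 and 346 in Ly5.1, without overlap (log2 fold change -0.35, SE 0.10, adjusted p = 0.0122). The call was lost in the linear model without moderated variances and without Ltbr-/- replicate 2 or 3 or Ly5.1 replicate 2 (highest adjusted p = 0.188). Naip5, a sensor of bacterial flagellin in the inflammasome, stood at 1324, 1134 and 1222 against 1461, 1525 and 1576 (log2 fold change -0.31, SE 0.09, adjusted p = 0.0103). It shares 23.5% of its windows of read length with other genes, its Naip paralogs among them, so that its value is uncertain, and its call was lost without Ltbr-/- replicate 2 and in the linear model without moderated variances (highest adjusted p = 0.118).

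Of the 10 NF-κB subunits and inhibitors, 1 rose and 1 fell. Nfkbiz, which encodes the nuclear protein IκBζ and is an NF-κB target gene, had signals of 435, 473 and 406 in Ltbr-/- and 575, 618 and 567 in Ly5.1. This was the largest difference of the 53 genes (log2 fold change -0.42, SE 0.09, 95% interval -0.61 to -0.23, adjusted p = 0.0011), and it lost its call only in the linear model without moderated variances (adjusted p = 0.076) of 17 alternatives. Nfkbib, which encodes the cytoplasmic inhibitor IκBβ, was higher in every Ltbr-/- sample, with 688, 748 and 717 against 584, 584 and 553 (log2 fold change 0.32, SE 0.09, adjusted p = 0.011). It lost its call under equal total signal and without Ltbr-/- replicate 2 (highest adjusted p = 0.109), and 12.1% of its windows occur in the neighbouring gene Ccer2. The subunit genes Nfkb1, Nfkb2, Rel, Rela and Relb did not pass the test, with log2 fold changes from -0.18 (Rel) to 0.12 (Rela). Nor did the remaining genes of the list, Nfkbia (0.00045, adjusted p = 0.998), Nfkbie (-0.16, adjusted p = 0.271) and Bcl3 (0.007, adjusted p = 0.974). These values were looked up after the result was known. Of the genes called NF-κB targets here, Tnfaip3 and Nfkbiz fell, whereas Birc3 did not (0.04). That label was not applied to every gene of the lists, and target genes as a set were not tested. Nfkbia, Nfkb2, Relb and Bcl3 stayed between 0.00045 and 0.03, and Traf1 of the other TRAFs stood at 0.18 (limma adjusted p = 0.145).

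In the other 4 lists no gene passed the adjusted p in limma. The unadjusted counts given next stand beside 27.1% of all genes tested at an unadjusted p under 0.05. Of the 8 receptor-proximal kinases and adaptors, which act beside the TRAFs at TNF and Toll-like receptors, 2 passed at an unadjusted p under 0.05, and Ticam1 (TRIF) had the largest difference (0.22, SE 0.09, adjusted p = 0.102). Of the 6 TAK1 and MAP3K partners, 2 passed unadjusted (33.3%), the largest difference being that of Tab1, an activating partner of TAK1 (-0.26, SE 0.10, adjusted p = 0.0793). Of the 6 genes of the linear ubiquitin chain assembly complex (LUBAC) and E2 enzymes, 2 passed unadjusted (33.3%), with Rbck1 (HOIL-1) at 0.22 (SE 0.08, adjusted p = 0.0524). The pair of IKK-related kinases had groups that did not overlap, as did 30.4% of all genes tested. Ikbke (IKKε), of which the unadjusted p was under 0.05, stood at 781, 691 and 670 in Ltbr-/- and 802, 837 and 829 in Ly5.1 (log2 fold change -0.21, SE 0.09, adjusted p = 0.128). Tbk1, looked up after its values were seen, stood at a log2 fold change of -0.16 (SE 0.09, adjusted p = 0.258).

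**Figure D4:**
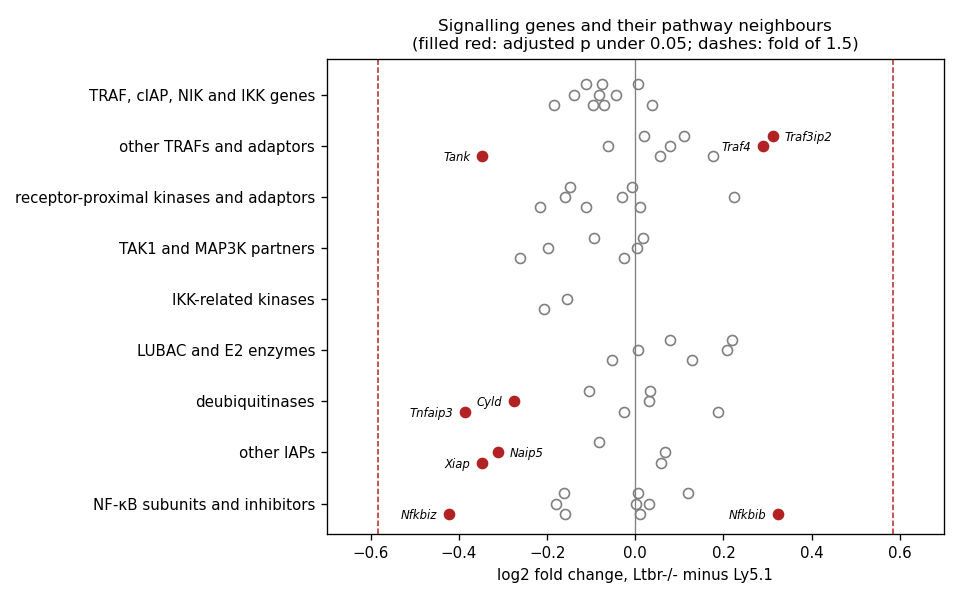
Log2 fold change in Ltbr-/- minus Ly5.1 LT/ST-HSCs (x axis) of the 10 signalling genes (top row) and of the 53 genes of 8 pathway lists (other rows), with filled red points for a limma adjusted p under 0.05 and red dashes for a fold of 1.5. The 10 signalling genes lie between -0.18 and 0.04, and the 9 filled points lie at -0.42 to -0.28 and 0.29 to 0.32, inside the dashes.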

How the data were processed

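RNA of 6 LT/ST-HSC samples was sequenced as TruSeq stranded single reads. The authors used SeqMan NGen for read assembly and ArrayStar for quantification, followed by a regularized log transformation; the submitters' processing notes name DESeq2, GRCm38 and mm10, and the annotation is not given in the sources used here. The deposited value is a signal per gene; that it is 2 to the power of the regularized log was inferred from the values, so its log2 was tested with no pseudocount. The files give no counts, so the depth behind single values cannot be taken from them, and precision rests on 3 samples per group; how chimeras were divided among them is not stated, so p-values measure only the spread between these samples.

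Of 26216 names, the upper 50% by mean (13108) were fitted with limma 3.58.1 (lmFit, eBayes with trend) in R 4.3.3, Ltbr-/- minus Ly5.1, thresholds being a p of 0.05 after Benjamini-Hochberg adjustment and a 1.5-fold change. For repeated symbols the highest mean was kept; no member was repeated. Differences within a sample were compared by an exact two-sided permutation test. Transcript lengths and shared windows came from GENCODE M21, positions and promoters from RefSeq GRCm38.p6; Otulin is listed under its synonym Fam105b.

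Named genes were the 10 members, Ltbr, of each list those past the adjusted p (at most 5) or else the 1 with the largest difference, and the 3 most like Ikbkb, which had both the smallest adjusted p and the highest signal of the members. Members and lists were chosen with earlier results of these data known. Alternatives were other filters, a pseudocount of 1, other scalings and variance models, the replicate number as a block, and leaving out each sample.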

Additional observations from a re-analysis of the deposited data

How the results depend on the processing

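Over 17 alternatives, the 10 genes gave 166 log2 fold changes (a filter to the upper 25% of names left out Traf3, Traf6, Map3k14 and Ikbkg), of which 4 passed an adjusted p of 0.05, all 4 under scaling to equal total signal (Traf2 -0.234, Traf3 -0.292, Birc2 -0.265, Ikbkb -0.337); in the others the lowest adjusted p was 0.0651. Under equal total signal, 44.9% of all genes were called lower. None of the 10 genes passed both thresholds in any of the 17 alternatives. Scaling to equal total signal, under which the median of all genes dropped by 0.152 to -0.164, also moved the median of the 10 genes to -0.231, the number of list genes past the adjusted p to 21, and the number of the 10 genes whose groups do not overlap from 0 to 4 (56.7% of all genes under that scaling), and turned Birc3 to -0.113 and Map3k7 to -0.146. Under quantile normalization 1 of the 10 genes had groups that do not overlap (31.6% of all genes) and Map3k7 was -0.00879. Without moderated variances 2 list genes passed (3.77%, against 4.37% of all genes), and the 21 under equal total signal were 39.6%, against 51% of all genes. Scaling to equal total signal shifts all genes of a sample by the same amount, so under it every log2 fold change moved alike. The cause of the difference in total signal was not tested.

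Leaving out 1 sample at a time gave 3 to 9 list genes past the adjusted p (5.66% to 17.0%, against 9.56% to 15.3% of all genes). It also gave 0 to 2 of the 10 genes with groups that do not overlap (38.4% to 42.9% of all genes), where a group of 2 samples overlaps less readily by construction. Signs near 0 turned for Map3k7 (-0.12 to 0.12), Birc3 (-0.0787 to 0.138), Ikbkg (-0.0786 to 0.0162, the latter without Ltbr-/- replicate 1), Traf6 (-0.201 to 0.00441, without Ly5.1 replicate 1) and Chuk (-0.148 to 0.0105, without Ly5.1 replicate 2). Differences within a sample ran from -0.194 to 0.0589 for Traf3 and Traf2 and from -0.0314 to 0.165 for Map3k14 and Traf3.

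Same-numbered samples did not deviate together (r = 0.0314, -0.0052 and 0.0899 for numbers 1 to 3), nor did every sample correlate best with its own number. With the replicate number as a block, 0 of the 10 genes passed (Ikbkb adjusted p = 0.121), 10 list genes did in place of 9, and 1936 of all genes did, as without it. With 3 samples per group, differences within the intervals given could not be resolved.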
